A study of Mus musculus with 8 samples.

Results

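The genes of the proteasome and of its assembly were followed in mouse epididymal fat. They were taken by name, as every listed gene whose symbol begins with Psma, Psmb, Psmc, Psmd, Psme, Psmf or Psmg and a number, together with Pomp. Of 52 such names, 2 were pseudogenes (Psmb6-ps and Psmb7-ps2) and 2 had a mean below 0.5 FPKM (fragments per kilobase per 1000000 mapped), which left 48 members of the 14400 genes tested and the 28295 listed. The names under that level were Psma8, the testis form of an alpha subunit, with 0.239 to 0.463 FPKM across KO-labelled libraries and 0.129 to 0.480 FPKM in WT, and Psmc3ip, which encodes a meiotic recombination factor and no subunit, with 0.283 to 0.454 FPKM across KO-labelled libraries and 0.336 to 0.798 FPKM in WT.

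The proteasome is the protease that degrades proteins marked with ubiquitin chains. Its barrel-shaped 20S core has outer rings of alpha subunits, which gate the entrance, and inner rings of beta subunits, which hold the catalytic sites. The 19S cap binds ubiquitin chains, removes them, and unfolds and feeds in the substrate with a ring of ATPases. Interferon-gamma induces alternative catalytic subunits and the PA28 alpha and beta cap subunits, which make the immunoproteasome that serves antigen presentation, and dedicated chaperones assemble core and cap. Transcription of the constitutive subunits is known to be raised by NRF1 (gene Nfe2l1), a membrane-bound factor of the endoplasmic reticulum that is active in fat.

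The study compared whole epididymal white fat of male mice in 2 groups of 4 libraries. The KO group carried an AdipoQ-Cre transgene and Cul3-flox/flox alleles, so that recombination is directed to adipocytes and the other cells of the tissue keep their Cul3. The WT group carried Cul3-flox/flox alleles without the Cre. Both groups ate a Western diet for 8 weeks and were fasted for 6 h. The ages of the mice and the animal behind each library are not given in the labels, so p-values measure the spread between these libraries. Cullin 3 is the scaffold of a class of ubiquitin ligases, which mark the substrates that proteasomes destroy, and the comparison asks what its loss in adipocytes does to the fat.

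The transcript of the targeted gene did not check the labels. Cul3 had 10.6, 11.2, 13.2 and 12.99 FPKM in KO1 to KO4, against 11.4, 9.66, 12.4 and 11.5 FPKM in WT1 to WT4, and the groups overlapped. The log2 difference was 0.09 ± 0.10, with an adjusted p of 0.520 from limma and a p of 0.429 from an exact two-sided permutation test. Exons inside and outside the loxP sites share 1 value here. The groups are therefore called KO-labelled and WT, and every direction rests on those labels. Reads recovered from the FPKM steps came to 15.2 to 18.7 M (M, 1000000 reads) in listed genes per KO-labelled library and 17.7 to 19.7 M per WT library. Of the reads that FPKM values were divided by, listed genes held 62.6 to 66.1% per KO-labelled library and 74.1 to 78.7% per WT library. The main results are therefore also given with every library scaled to a sum of 1000000. The median of the log2 fold changes over all genes tested was -0.02 as deposited and 0.24 so scaled, and that of Cul3 was then 0.37 (adjusted p = 0.0477).

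In the KO-labelled fat, 27 of the 31 messages of the constitutive core and cap fell, and none rose, as deposited. Their median log2 fold change was -0.42, or -0.16 scaled to a sum of 1000000. So scaled, only 7 of the 27 kept their call, none rose, and the 4 not called as deposited took the other sign. Of the 5 immunoproteasome and PA28 genes, none was called lower, but Psme2 (-0.57) and Psmb10 (-0.37) had log2 fold changes below 0. Differences between the classes were not tested. Of the 48 members, 32 fell, 1 rose and 15 passed no test, at an adjusted p under 0.05. Among all genes tested, 18.6% fell and 11.7% rose. In 34 members every KO-labelled library lay below every WT library, which held for 19.1% of all genes tested. The median log2 fold change of the members was -0.36 as deposited and -0.10 scaled to a sum of 1000000. On that scaling 8 members fell and 3 (Psmb8, Psmb9 and Psme1) rose, beside 8.26% and 29.3% of all genes. The 8 were Psma1, Psmb7, Psmc4, Psmd2, Psmd12, Psmd13, Psmd14 and Pomp, and these fell in all 21 alternatives tried, in which Psmb9 rose. With 1 library left out, 17 to 32 members fell, 17 without WT1 and 21 without KO3. Of the 14400 genes tested, 1866 fell without WT1 and 1858 without KO3, against 2683 with all libraries. Without WT1 and WT2 together, these 8 were the only members that fell and Psmb9 the only one that rose, beside 7.19% and 5.01% of all genes. Scaled to the reads in listed genes, the same 8 fell, beside 8.8% of all genes, and the 3 rises (beside 29.1%) were again Psmb8, Psmb9 and Psme1.

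**Figure D1:**
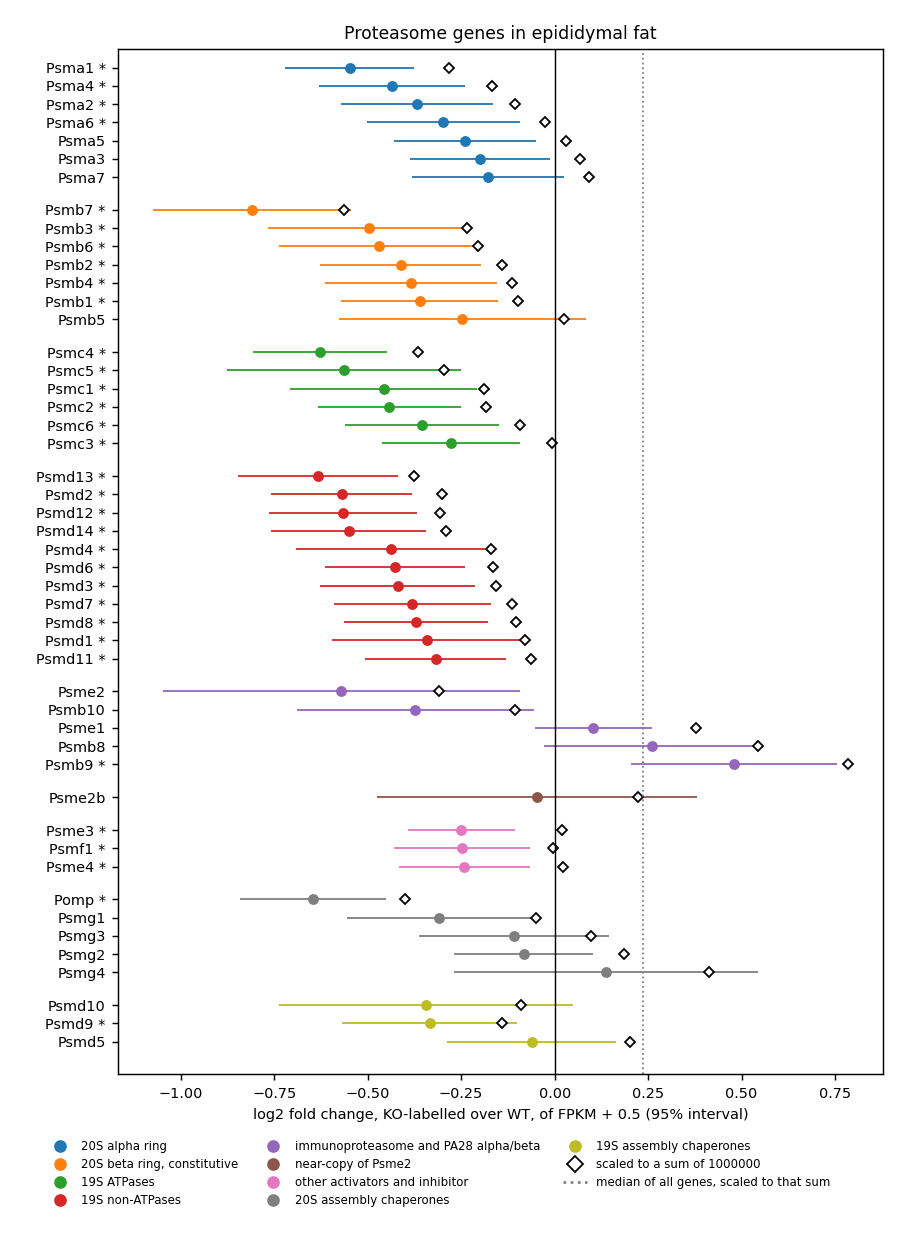
Log2 fold changes, KO-labelled over WT, of FPKM + 0.5 for the 48 members, by class. Filled points and bars are the values as deposited with their 95% intervals, diamonds are the values with each library scaled to a sum of 1000000, the dotted line is the median of all genes on that scaling (0.24), and a star marks a member called at an adjusted p under 0.05. The filled points of all 31 core and cap subunits lie below 0, from -0.81 to -0.18, and Psmb8, Psmb9, Psme1 and Psmg4 lie above 0.

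Among the constitutive beta subunits, 6 of 7 fell, with a median log2 fold change of -0.41. Psmb7, which encodes the subunit with the trypsin-like catalytic site, changed most of all 48 members. It had 8.66, 9.08, 8.18 and 8.71 FPKM in KO1 to KO4, against 17.0, 18.9, 13.8 and 13.1 FPKM in WT1 to WT4. The KO-labelled libraries lay close together and all below the lowest WT library, with WT1 and WT2 above the other WT libraries. The mean of the KO-labelled libraries was 8.66 ± 0.366 FPKM and that of WT 15.7 ± 2.72 FPKM (SD, n = 4 each), a difference of -44.9%. The fall was -0.81 ± 0.12 as a log2 fold change (limma adjusted p = 0.00145), and scaled to a sum of 1000000 it was -0.56. Psmb7 was the lowest of the 14 core messages per length in every KO-labelled library and in WT3 and WT4, whereas Psma3 was the lowest in WT1 and WT2. Exons of Psmb7 overlap those of Nek6 on the opposite strand over 405 of 3421 bases, and Nek6 had 7.20 ± 0.641 FPKM across KO-labelled libraries and 8.02 ± 0.708 FPKM in WT.

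The other catalytic subunits differed from one another. Psmb6, which carries the caspase-like site, had 26.1, 22.4, 19.7 and 23.7 FPKM in KO1 to KO4, against 33.7, 35.7, 26.7 and 32.4 FPKM in WT1 to WT4, and it fell by 0.47 on the log2 scale (adjusted p = 0.0171). Psmb5, which carries the chymotrypsin-like site, had 46.6, 43.3, 40.4 and 50.7 FPKM in KO1 to KO4, against 64.0, 62.5, 42.6 and 48.5 FPKM in WT1 to WT4. Here WT3 and WT4 lay within the KO-labelled range, and the log2 fold change of -0.25 ± 0.15 passed no test (adjusted p = 0.228). Of the noncatalytic beta subunits, Psmb3 (-0.50), Psmb2 (-0.41), Psmb4 (-0.38) and Psmb1 (-0.36) fell.

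Of the 7 alpha ring subunits, 4 fell, with a median log2 fold change of -0.30 over the ring. Psma1 had 22.5, 22.2, 21.4 and 24.1 FPKM in KO1 to KO4, against 35.3, 34.6, 31.4 and 31.4 FPKM in WT1 to WT4. The groups were well apart, and the log2 fold change was -0.55 ± 0.08 (adjusted p = 0.00121), or -0.28 scaled to a sum of 1000000. Psma4 (-0.43), Psma2 (-0.37) and Psma6 (-0.30) fell as well. Psma6 was the highest of all members in every library, at 52.7 ± 4.90 FPKM across KO-labelled libraries and 64.8 ± 3.43 FPKM in WT. Psma5 (-0.24, adjusted p = 0.0581) and Psma3 (-0.20, adjusted p = 0.0983) passed no test although every KO-labelled library was below every WT library. Psma7 (-0.18, adjusted p = 0.163) overlapped between the groups. The log2 fold changes of these 3 and of Psmb5 took the other sign when scaled to a sum of 1000000, at 0.03 for Psma5, 0.07 for Psma3, 0.09 for Psma7 and 0.03 for Psmb5. As deposited, the log2 fold changes of the 14 core messages ran from -0.81 for Psmb7 to -0.18 for Psma7, and differences between members were not tested.

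All 17 subunits of the 19S cap fell, 6 of 6 ATPases and 11 of 11 other subunits, and in 16 of them the groups did not overlap. Their median log2 fold change was -0.44, or -0.17 scaled to a sum of 1000000, where 5 fell. Psmc4, an ATPase of the base ring, had 18.8, 16.2, 16.6 and 17.7 FPKM in KO1 to KO4, against 29.1, 27.2, 27.0 and 24.9 FPKM in WT1 to WT4. Its lowest WT library stood above all KO-labelled libraries, and its log2 fold change was -0.63 ± 0.08 (adjusted p = 0.000749), or -0.37 scaled. Among the other ATPases, the log2 fold change ran from -0.56 for Psmc5 to -0.28 for Psmc3, with Psmc1, Psmc2 and Psmc6 between them.

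Among the cap subunits that are not ATPases, Psmd13, a structural subunit of the lid, had 11.5, 11.6, 11.1 and 13.3 FPKM in KO1 to KO4, against 19.3, 21.2, 17.5 and 16.7 FPKM in WT1 to WT4. All KO-labelled libraries were lower, and the log2 fold change was -0.63 ± 0.09 (adjusted p = 0.00171). Exons of Psmd13 overlap those of Sirt3 on the opposite strand over 342 of 3377 bases, and the level of Sirt3 is not given here. Psmd2, a large scaffold of the base that docks shuttle proteins and deubiquitinases, had 29.0, 31.0, 29.2 and 31.8 FPKM in KO1 to KO4, against 45.6, 50.001, 44.4 and 40.8 FPKM in WT1 to WT4. It was the highest of the 11 in both groups, and its log2 fold change was -0.57 ± 0.08 (adjusted p = 0.00156). Psmd14, the lid's deubiquitinase that cuts chains off the arriving substrate, had 13.9, 13.4, 13.9 and 15.999 FPKM in KO1 to KO4, against 20.1, 21.6, 23.9 and 19.2 FPKM in WT1 to WT4. The groups were again apart, at a log2 fold change of -0.55 ± 0.09 (adjusted p = 0.00286). Psmd12, another lid subunit, fell by 0.57 on the log2 scale (adjusted p = 0.0020).

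The other cap members had smaller log2 fold changes. Psmd4, which binds ubiquitin chains, fell by 0.44 (log2) and Psmd6, Psmd3, Psmd7 and Psmd8 by 0.43 to 0.37. Psmd11, which helps set the assembly of active proteasomes in human embryonic stem cells, fell by 0.32. Psmd1, the largest subunit, had the weakest call (-0.34, adjusted p = 0.0485), and it was the one cap member whose groups overlapped, with 9.01, 10.5, 10.1 and 12.97 FPKM in KO1 to KO4 and 12.6, 14.2, 14.6 and 12.7 FPKM in WT1 to WT4. Here KO4 lay above WT1 and WT4. Adrm1, the ubiquitin receptor outside the Psm names, had 11.6, 10.6, 8.52 and 10.2 FPKM in KO1 to KO4, against 16.3, 19.2, 14.2 and 14.4 FPKM in WT1 to WT4, and fell by 0.62 on the log2 scale (adjusted p = 0.00606). The other gene of that list, the lid subunit Sem1, passed no test (-0.45). Without WT1 and WT2, Adrm1 lost its call (limma adjusted p = 0.0585).

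**Figure D2:**
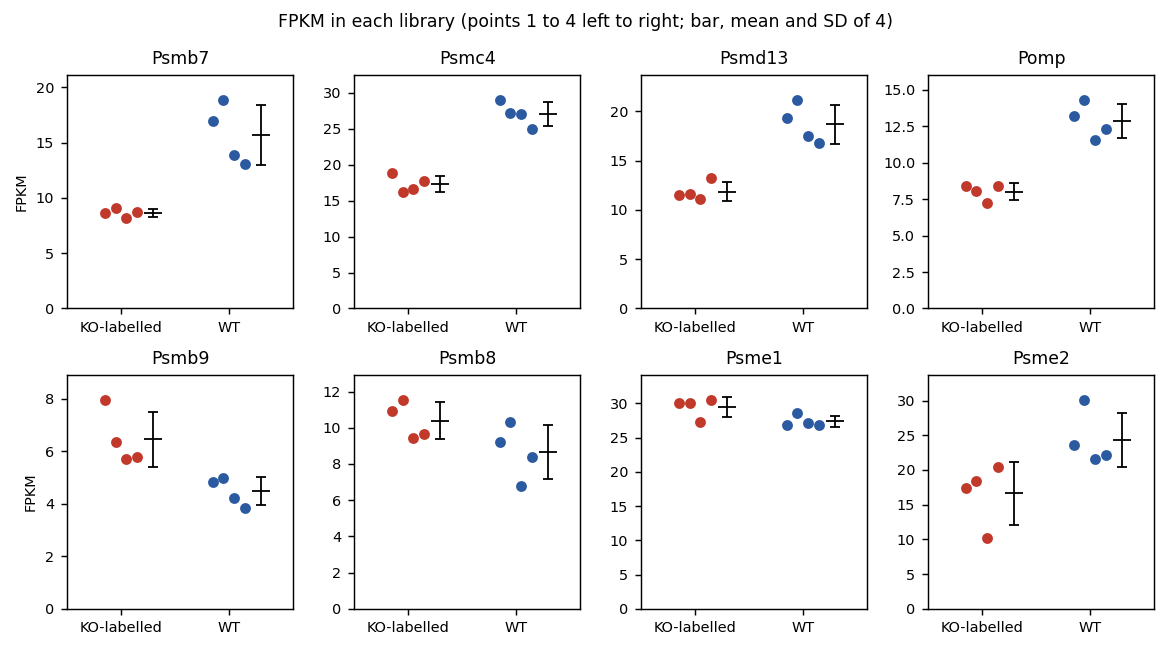
FPKM of 8 members in each library, KO-labelled left of WT, with the points of libraries 1 to 4 in order and bars for the mean and SD of 4 libraries; every axis starts at 0. The upper row shows constitutive subunits and the chaperone Pomp, whose groups are apart, and in the lower row Psmb9 is higher in all 4 KO-labelled libraries, Psmb8 and Psme1 overlap, and KO3 is far below the other libraries for Psme2.

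The values of the immunoproteasome genes were mixed. Of the 3 catalytic subunits and the 2 PA28 subunits, 1 rose, none fell, and the median log2 fold change was 0.10 (0.38 scaled to a sum of 1000000). Psmb9, which replaces Psmb6, had 7.95, 6.37, 5.71 and 5.80 FPKM in KO1 to KO4, against 4.84, 4.997, 4.21 and 3.85 FPKM in WT1 to WT4. It was higher in all 4 KO-labelled libraries, with KO1 the highest. The mean of the KO-labelled libraries was 6.46 ± 1.04 FPKM and that of WT 4.47 ± 0.538 FPKM (SD, n = 4 each), and the log2 fold change was 0.48 ± 0.12 (adjusted p = 0.0180). That adjusted p ran from 0.00112 to 0.0456 over the alternatives. Exons of Psmb9 overlap those of Tap1 on the opposite strand over 212 of 3660 bases, and Tap1 also rose, so without strand some reads of the pair cannot be told apart.

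Psmb8, which replaces Psmb5, had 11.0, 11.5, 9.45 and 9.65 FPKM in KO1 to KO4, against 9.19, 10.3, 6.76 and 8.38 FPKM in WT1 to WT4. WT2 lay above KO3 and KO4, and the log2 fold change of 0.26 ± 0.13 passed no test (adjusted p = 0.150). Scaled to a sum of 1000000, however, it was 0.54 (adjusted p = 0.00927). Psmb8 exons overlap those of Gm20496 on the opposite strand over 498 of 3381 bases, so some reads may be shared there too. Psmb10, which replaces Psmb7, had 21.7, 21.2, 17.0 and 17.3 FPKM in KO1 to KO4, against 29.5, 28.6, 21.2 and 21.8 FPKM in WT1 to WT4, with a log2 fold change of -0.37 ± 0.14 (adjusted p = 0.0739). In both groups libraries 1 and 2 were the high ones for Psmb10.

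PA28 is a ring that opens the core without ATP, built from the products of Psme1 and Psme2. Psme1 had 30.0, 30.0, 27.3 and 30.5 FPKM in KO1 to KO4, against 26.9, 28.6, 27.1 and 26.9 FPKM in WT1 to WT4. Its log2 fold change was 0.10 ± 0.07 (adjusted p = 0.284), or 0.38 scaled to a sum of 1000000 (adjusted p = 0.00354). Psme2 had 17.4, 18.4, 10.2 and 20.5 FPKM in KO1 to KO4, against 23.5, 30.1, 21.6 and 22.2 FPKM in WT1 to WT4, so that every KO-labelled library was lower, KO3 far lower. The log2 fold change was -0.57 ± 0.21 (adjusted p = 0.0701). The Psme2 value is uncertain, because 28.3% of the 50-base words of its transcripts also occur in other genes, and for its near-copy Psme2b the share is 69.3%. Psme2b had 30.4, 19.3, 23.2 and 15.9 FPKM in KO1 to KO4, against 26.9, 21.5, 19.96 and 21.6 FPKM in WT1 to WT4, with a log2 fold change of -0.05 ± 0.19 (adjusted p = 0.867). Psmb5 (54.1%), Psma5 (49.96%) and Psmd9 (24.9%) also shared over 20% of their words.

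Within a library, the ratio of an inducible catalytic subunit to the constitutive one it replaces is not moved by the scaling of that library. All 3 ratios were higher in the KO-labelled fat, with no overlap between the groups. Psmb9/Psmb6 was 0.304, 0.284, 0.290 and 0.244 in KO1 to KO4, against 0.144, 0.140, 0.158 and 0.119 in WT1 to WT4. The lowest KO-labelled ratio stood well above the highest WT ratio, and the KO-labelled mean was 0.280 ± 0.0257 and the WT mean 0.140 ± 0.0162 (SD, n = 4 each). The difference was 0.95 on the log2 scale with 0.5 added to each FPKM value. Psmb8/Psmb5 was 0.235, 0.267, 0.234 and 0.190 in KO1 to KO4, against 0.144, 0.165, 0.159 and 0.173 in WT1 to WT4, a log2 difference of 0.51. KO4 came nearest to the WT libraries. Psmb10/Psmb7 was 2.51, 2.33, 2.08 and 1.98 in KO1 to KO4, against 1.73, 1.51, 1.53 and 1.67 in WT1 to WT4, a log2 difference of 0.44. For each of the 3, p was 0.0286 by the exact two-sided permutation test, which is the smallest that 4 against 4 libraries allow, and 0.0286 adjusted over the 3. The messages behind the ratios differed. Psmb9 rose and Psmb6 fell, whereas Psmb7 had a log2 fold change of -0.81 and Psmb10 one of -0.37 that passed no test. Neither Psmb8 (0.26) nor Psmb5 (-0.25) passed a test. A ratio also rises where only its constitutive subunit falls, and the median log2 fold change over all genes tested was -0.02 as deposited. Ratios of other genes to these subunits are not given here.

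**Figure D3:**
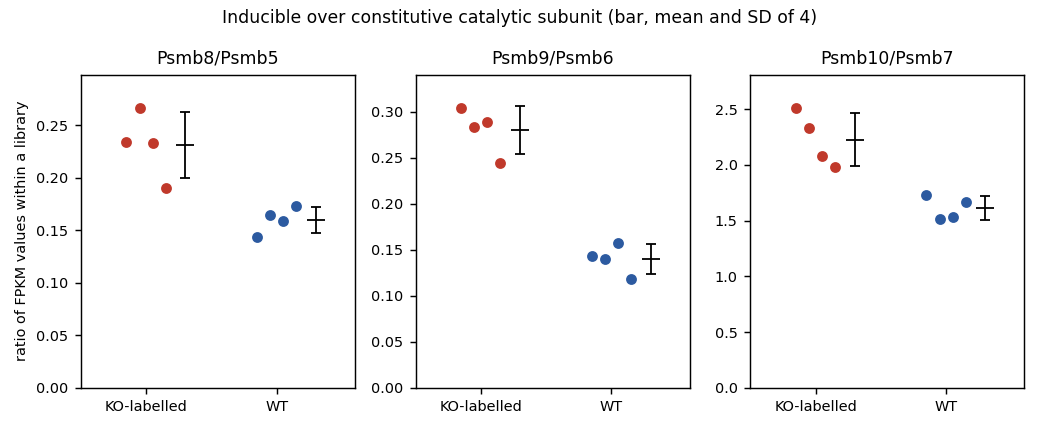
Ratio of the FPKM of each inducible catalytic subunit to that of the constitutive subunit it replaces, in each library, KO-labelled left of WT, with points of libraries 1 to 4 in order and bars for the mean and SD of 4 libraries; axes start at 0. In each panel the lowest KO-labelled library (0.190, 0.244 and 1.98) lies above the highest WT library (0.173, 0.158 and 1.73).

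In whole fat, fewer cells of a type and less RNA per cell cannot be told apart, and the marker sums of several cell types moved with these values. The marker counts below are as deposited, beside 18.6% of all genes tested that fell and 11.7% that rose. On lists this short such counts can lie near those shares. Marker calls scaled to a sum of 1000000, where 29.3% of all genes rose, are not given here. The 10 adipocyte markers summed to 2561 to 3414 FPKM across KO-labelled libraries and 3832 to 6552 FPKM in WT, and 8 of the 10 fell. The 8 endothelial markers summed to 148 to 178 FPKM across KO-labelled libraries and 224 to 323 FPKM in WT, and 6 fell. Of 11 lymphocyte markers, 9 were under 0.5 FPKM on average and the 2 tested (Ptprc and Nkg7) rose. The sum of the 11 was 9.18 to 16.8 FPKM across KO-labelled libraries and 4.47 to 7.60 FPKM in WT. The 12 macrophage markers, of which 4 rose, summed to 1385, 1325, 1008 and 580 FPKM in KO1 to KO4, against 535, 454, 455 and 1297 FPKM in WT1 to WT4. KO4, with the lowest macrophage sum of the KO-labelled libraries, also had the lowest of their values for all 3 ratios of inducible to constitutive subunits. WT4, with the highest macrophage sum of the WT libraries, had their highest Psmb8/Psmb5 ratio (0.173), their second highest Psmb10/Psmb7 ratio (1.67) and their lowest Psmb9/Psmb6 ratio (0.119). Dendritic cell markers summed to 11.6 to 16.8 FPKM across KO-labelled libraries and 12.9 to 28.4 FPKM in WT, with 2 of 6 higher and none lower. Fibroblast markers summed to 194 to 233 FPKM across KO-labelled libraries and 205 to 402 FPKM in WT, with 1 of 6 lower, near the share of all genes. No listed marker of these types was at 0 in all libraries. Epididymis and testis markers were at 3.43 to 205 FPKM across KO-labelled libraries and 0.0471 to 50.9 FPKM in WT, highest in KO1. The part of cell makeup in these results was not tested.

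The libraries of a group also differed in how far the members lay from the mean. Core and cap messages summed to 664, 631, 594 and 685 FPKM in KO1 to KO4, against 895, 942, 834 and 784 FPKM in WT1 to WT4. KO3 held the lowest value for 26 of the 48 members and WT2 the highest for 26, and WT1 and WT2 were the highest pair for 26 as well. The adipocyte marker sums ran 2940, 2561, 2633 and 3414 FPKM in KO1 to KO4, against 5283, 6552, 4420 and 3832 FPKM in WT1 to WT4, so WT2 was highest and WT4 lowest among WT libraries in both sums, and KO4 was highest in both among the KO-labelled ones. As a share of the FPKM of all listed genes, the 48 members made up 0.437 to 0.456% across KO-labelled libraries and 0.463 to 0.498% in WT, with no overlap. For the 5 immunoproteasome and PA28 genes the share was 0.0398 to 0.0480% across KO-labelled libraries and 0.0366 to 0.0438% in WT, and the groups overlapped.

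**Figure D4:**
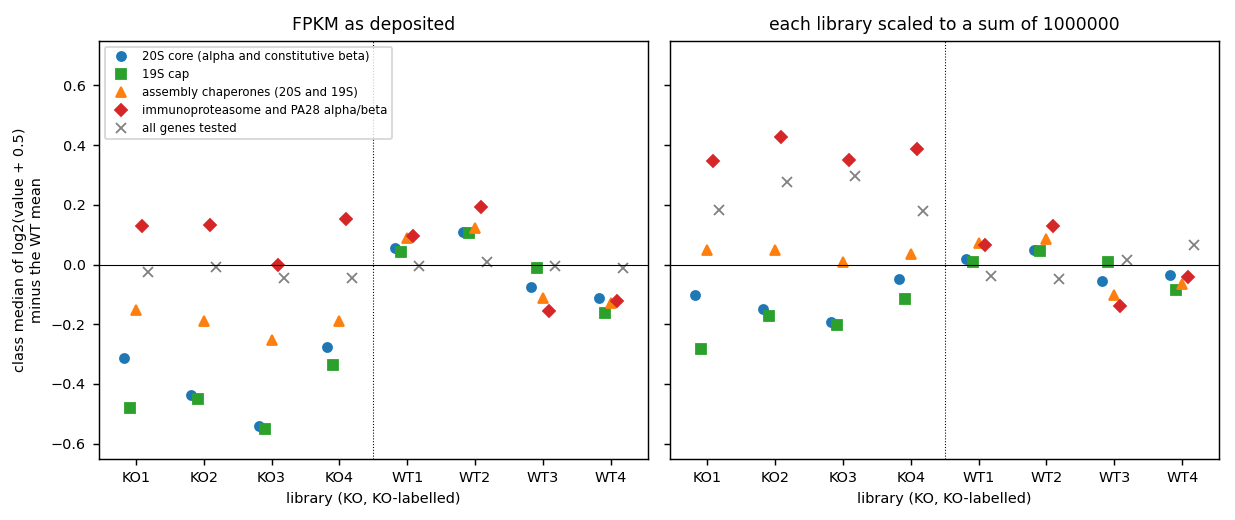
Median over the members of a class, in each library, of log2(value + 0.5) minus the WT mean of the gene, as deposited (left) and with each library scaled to a sum of 1000000 (right); crosses are all genes tested. As deposited, the core (-0.54 to -0.28) and the cap (-0.55 to -0.34) are lower in all 4 KO-labelled libraries than in any WT library, and the immunoproteasome and PA28 class is not. Scaled, the cap is still lower (-0.28 to -0.12 across KO-labelled libraries, -0.09 to 0.05 in WT). The core then overlaps, with KO4 (-0.047) above WT3 (-0.056). Scaled, the immunoproteasome and PA28 class is higher in all 4 KO-labelled libraries (0.35 to 0.43) than in any WT library. The same holds for all genes tested, at 0.18 to 0.30 across KO-labelled libraries and -0.05 to 0.07 in WT. The log2 fold changes of Psmb10 and Psme2 stay below 0 on that scaling.

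The other activators and the inhibitor all fell, by little. Psme3, whose product PA28 gamma caps proteasomes in the nucleus, had 16.8, 17.2, 16.8 and 18.0 FPKM in KO1 to KO4, against 21.2, 20.5, 20.8 and 19.7 FPKM in WT1 to WT4. The groups were apart, at a log2 fold change of -0.25 ± 0.06 (adjusted p = 0.0180). Psme4, which encodes the activator PA200, fell by 0.24 (adjusted p = 0.0434) and Psmf1, which encodes the inhibitor PI31, by 0.25 (adjusted p = 0.0462). None of the 3 passed the test scaled to a sum of 1000000, where their median was 0.02, with Psme3 and Psme4 above 0 and Psmf1 below.

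The assembly chaperones were mixed. Pomp, which binds immature cores and is degraded when the core matures, had 8.39, 8.06, 7.22 and 8.40 FPKM in KO1 to KO4, against 13.2, 14.3, 11.6 and 12.3 FPKM in WT1 to WT4. All KO-labelled libraries were lower, and the log2 fold change was -0.65 ± 0.09 (adjusted p = 0.00098), or -0.40 scaled to a sum of 1000000. The PAC chaperones, which build the alpha ring in pairs, passed no test, with log2 fold changes of -0.31 for Psmg1 (adjusted p = 0.0605), -0.08 for Psmg2, -0.11 for Psmg3 and 0.14 for Psmg4. Psmg3 was the lowest of all 48 members, at 0.820 ± 0.0390 FPKM across KO-labelled libraries and 0.926 ± 0.131 FPKM in WT, from 54 to 74 recovered reads, so small differences were not detectable there. Of the chaperones that bind the ATPases of the cap, Psmd9 fell by 0.33 on the log2 scale (adjusted p = 0.0378), while Psmd10, also known as gankyrin (-0.34, adjusted p = 0.163), and Psmd5 (-0.06, adjusted p = 0.665) passed no test. Psmd9 exons overlap those of the predicted gene Gm26745 on the opposite strand over 1849 of 7248 bases.

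NRF1 acts through antioxidant response elements and interferon through response elements of its own, and both were searched for in the RefSeq promoter windows of build GRCm38.p6, which run from 250 bases before to 50 bases after each gene's start. A window was found for 41 of the 48 members. The letters TGACNNNGC occurred on either strand in 6 of these genes (14.6%), beside 14.0% of all genes with a window, and the core of the interferon-stimulated response element, GAAA followed after any 2 bases by GAAA, in 5 (12.2%), beside 3.99%. All matches of the first motif are shown because each lies in a constitutive subunit, a chaperone or an activator. The Psme1 match of the second is shown because no other immunoproteasome or PA28 member was found with one. Members without a window could not have a match. The other matches of the second, in Psmb3, Psmd4, Psmd9 and Psmg4, are not shown. Capitals mark the match, and each sequence is on the strand of its gene.
Psmb5, chr14:54618022-54618054, minus strand, match beginning 47 bases before the start: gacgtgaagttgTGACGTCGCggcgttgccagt
Psmb6, chr11:70525336-70525356, plus strand, 9 bases before: gactaaagagagTGACGGAGC
Psmc6, chr14:45329585-45329617, plus strand, 227 bases before: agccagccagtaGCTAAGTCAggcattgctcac
Psmd12, chr11:107479278-107479301, plus strand, 247 bases before: tctGCTGTGTCAcatttgcccccc
Psmd9, chr5:123228147-123228179, plus strand, 31 bases before: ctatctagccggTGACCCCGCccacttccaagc
Psme4, chr11:30771756-30771776, plus strand, 7 bases before: ggcgctgcggctGCAGCGTCA
Psme1, chr14:55578491-55578512, plus strand, 10 bases after: ttcgagctgtgcTTTCGCTTTC
The Psmc6, Psmd12, Psme4 and Psme1 matches read on the opposite strand. Of the 6 genes with the first motif, 5 fell (all but Psmb5), and of the 5 with the second, 3 fell (Psmb3, Psmd4 and Psmd9), beside 32 of all 48 members. A match is a description of letters, and the motifs share no bases with each other in any of the sequences shown.

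The genes around the proteasome were read from lists of its partners. Their counts as deposited stand beside the 18.6% of all genes tested that fell and the 11.7% that rose. Counts scaled to a sum of 1000000 stand beside 8.26% that fell and 29.3% that rose. On short lists such counts can lie near those shares. Of the partner genes named by the smallest adjusted p of their list, 13 lost their call without WT1 and WT2, and 8 kept it. In the pathway that makes NRF1 active, 3 of 9 tested genes fell and 3 rose, with a median log2 fold change of 0.06. Scaled to a sum of 1000000, 2 fell and 4 rose, Mafg being added to the rises and Sel1l lost from the falls. Nfe2l1 had 53.4, 48.0, 42.0 and 46.6 FPKM in KO1 to KO4, against 78.6, 83.4, 67.6 and 64.8 FPKM in WT1 to WT4. The groups were apart, and the log2 fold change was -0.62 ± 0.11 (adjusted p = 0.00423), or -0.35 scaled to a sum of 1000000 (adjusted p = 0.0148). Syvn1, the ligase of the endoplasmic reticulum that turns NRF1 over, fell by 0.52 on the log2 scale (adjusted p = 0.00194), and its adaptor Sel1l fell by 0.33 (adjusted p = 0.00647), or -0.07 scaled to a sum of 1000000 (adjusted p = 0.505). Mafk, one of the small MAF proteins with which NRF1 pairs on DNA, had 10.9, 10.7, 10.8 and 10.2 FPKM in KO1 to KO4, against 6.80, 6.72, 6.35 and 7.60 FPKM in WT1 to WT4, and rose by 0.60 ± 0.07 on the log2 scale (adjusted p = 0.000615). The other rises, named after their values were seen, were Maff (0.54) and Ddi2 (0.46). Maff is another small MAF protein, and Ddi2 is the protease that cuts NRF1 into its active form. Ddi2 lost its call without WT1.

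The 4 ubiquitin shuttle receptors reported here, which carry marked proteins to the cap, all fell, with a median log2 fold change of -0.36. Ubqln1 had 24.1, 23.5, 24.6 and 27.9 FPKM in KO1 to KO4, against 45.4, 42.9, 43.1 and 35.6 FPKM in WT1 to WT4, and its log2 fold change was -0.72 ± 0.10 (adjusted p = 0.0011). KO4 and WT4 were the nearest pair. Ubqln2 (-0.43), Rad23b (-0.28) and Ubqln4 (-0.22) had smaller log2 fold changes, and scaled to a sum of 1000000 Ubqln1 was the only one of the 4 that fell, with Ubqln4 at 0.04. Of 5 genes for ubiquitin and its activation reported here, 2 fell: the polyubiquitin gene Ubb (-0.70, adjusted p = 0.0223) and the activating enzyme Uba1 (-0.35, adjusted p = 0.00675). The median of the 5 was 0.19. Scaled to a sum of 1000000, none of the 5 fell, with Ubb at -0.43 (adjusted p = 0.0671) and Uba1 at -0.07 (adjusted p = 0.481), and 1 rose, the activating enzyme Uba6. Ubb had 230, 176, 133 and 136 FPKM in KO1 to KO4, against 297, 300, 242 and 237 FPKM in WT1 to WT4.

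Of 7 tested enzymes and adaptors that sit on the proteasome, 3 fell, and the median log2 fold change was -0.24. Zfand2a, a stress-inducible adaptor, had 6.68, 5.56, 5.16 and 5.76 FPKM in KO1 to KO4, against 10.8, 10.8, 9.40 and 10.7 FPKM in WT1 to WT4, a log2 fold change of -0.80 ± 0.09 (adjusted p = 0.000462). Txnl1 (-0.30) and the ligase Ube3c (-0.24) also fell. Scaled to a sum of 1000000 neither passed the test, and Zfand5 rose. Of 10 tested genes of p97, the ATPase that pulls proteins out of membranes for degradation, 3 fell, Vcp (-0.35), Nsfl1c (-0.56) and Nploc4 (-0.24), and none did so scaled to a sum of 1000000. Their median log2 fold change was -0.22 as deposited and 0.04 scaled.

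Partners of the immunoproteasome in antigen presentation moved in both directions as deposited. Of 10 tested, 3 rose and 1 fell, with a median log2 fold change of 0.07, and scaled to a sum of 1000000 4 rose, B2m being added, and none fell. Tap1, a subunit of the pump that carries peptides into the endoplasmic reticulum and a neighbour of Psmb9, had 12.4, 14.0, 11.4 and 12.1 FPKM in KO1 to KO4, against 6.74, 7.34, 6.77 and 6.18 FPKM in WT1 to WT4. Every KO-labelled library was higher, and the log2 fold change was 0.84 ± 0.08 (adjusted p = 0.00027). Nlrc5, the transactivator of class I antigen presentation genes, had 6.72, 9.03, 7.84 and 8.71 FPKM in KO1 to KO4, against 3.83, 4.71, 4.37 and 4.47 FPKM in WT1 to WT4, and rose by 0.82 ± 0.10 on the log2 scale (adjusted p = 0.000795). Irf8, a factor of myeloid and lymphoid cells, rose by 0.76 (adjusted p = 0.0119). Tapbp, which loads peptides onto class I molecules, fell by 0.39 (adjusted p = 0.0175), or -0.12 scaled to a sum of 1000000 (adjusted p = 0.352).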

How the data were processed

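Poly(A) RNA of epididymal fat was sequenced in 8 libraries, 4 per group. Per the labels' protocols, TRIzol was used for RNA and random hexamers primed the cDNA. The submitters' processing notes name HISAT2 2.0.5, featureCounts and mm10, and the annotation release and strand setting are not given in the sources used here, so genes that overlap on opposite strands (11 members) can share reads. The authors deposited FPKM values per gene and library. Low values stepped in whole reads: with GENCODE M21 exon lengths, 97.9 to 98.0% of values between 0.5 and 200 reads lay within 0.02 of a whole number, and these recovered reads give the depth. Other coordinates are those of GENCODE M21, 1-based.

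A limma-trend fit with robust moderation (limma 3.58.1 under R 4.3.3) was made on log2(FPKM + 0.5) of all 8 libraries, two-sided and without covariate. P-values were adjusted by Benjamini-Hochberg over the 14400 genes averaging at least 0.5 FPKM; called means an adjusted p under 0.05. The scale understates changes of low genes. Errors beside means are SDs, and errors beside log2 fold changes are limma's standard errors. Cul3 and the ratios were tested with exact two-sided permutation tests. The fit was tested on simulated data. Every member could be named; from each partner list, up to 4 called genes with the smallest adjusted p. Partner genes named only for a call under another scaling were chosen after their values were seen. The members and lists were chosen with earlier results of these data known, and the partner and marker lists carry no test of their own. Alternatives were other pseudocounts, filters and scalings, limma without trend, a replicate block and each library left out; scaling to reads in listed genes, voom on recovered reads, and leaving out WT1 with WT2 or KO4 with WT4 were chosen after seeing the data. Same-numbered libraries did not deviate together (correlations -0.317 to 0.169). Paaf1 is not among the rows analysed here, and results of some partner genes are not reported here. Tables and plots used matplotlib 3.10.9, scipy 1.17.1, pandas 2.3.3 and numpy 2.4.6 under Python 3.11.15.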

Additional observations from a re-analysis of the deposited data

Results flagged for a closer look

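In 9 of 146 groups of 4 libraries checked, 1 library stood far from the other 3 (Dixon's test at the 95% level), and chance gives about 1 in 20. Psmb4 was low in KO3 (26.9 FPKM, the nearest other KO-labelled library at 31.6), as was Psme1 (27.3 FPKM, nearest 30.0). Psmd9 was high in KO1 (1.77 FPKM, nearest 1.56), as was Psmg2 (10.6 FPKM, nearest 9.24). Among the WT libraries, Psmd8 was high in WT2 (36.8 FPKM, nearest 31.0), as was Psme1 (28.6 FPKM, nearest 27.1), and Ubqln2 was low there (22.0 FPKM, nearest 26.5). WT4 was low for Psmd11 (7.39 FPKM, nearest 8.75), and WT3 for Zfand2a (9.40 FPKM, nearest 10.7).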

How the results depend on the processing

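Scaling and the choice of WT libraries moved the counts. Scaled to a sum of 1000000, 4226 genes rose and 1190 fell, and 3 members rose (Psmb8, Psmb9 and Psme1) and 8 fell. Scaled to the reads in listed genes, 4197 genes rose and 1267 fell, with 3 and 8 members. With quantile normalization 1839 genes rose and 2097 fell, with 2 and 15 members. With median-of-ratios scaling 1778 genes rose and 2543 fell, with 1 and 29 members. Without WT1 and WT2, 722 genes rose and 1036 fell, and 8 members fell. With the replicate block, 1113 genes rose and 1995 fell, and 21 members fell, although the numbers do not pair the libraries. Leaving out 1 library gave 1089 to 1937 genes that rose, 1858 to 2803 that fell and 17 to 32 members that fell. Without WT1, 1866 genes and 17 members fell, and without KO3, 1858 genes and 21 members fell. The cause was not tested.

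Cul3 moved to 0.37 (sum of 1000000, adjusted p = 0.0477) and 0.34 (listed genes, adjusted p = 0.0397). With 1 library left out, the log2 difference was 0.88 to 1.01 for Psmb9/Psmb6, 0.44 to 0.60 for Psmb8/Psmb5 and 0.38 to 0.49 for Psmb10/Psmb7, where an exact permutation p cannot go below 0.0571. With same-numbered pairs as the replicate block the differences were 0.95, 0.51 and 0.44, where it cannot go below 0.125.

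Log2 fold changes that took the other sign, scaled to a sum of 1000000, were Psme3 0.019, Psme4 0.023, Psma5 0.031, Psma3 0.067, Psmb5 0.026, Psma7 0.092, Psmg3 0.096, Psmg2 0.19, Psmd5 0.20, Psme2b 0.22, Ubqln4 0.044, Ube3c 0.0069 and Nploc4 0.027. Scaled to the reads in listed genes they were Psma5 0.0066, Psma3 0.042, Psmb5 0.0013, Psma7 0.067, Psmg3 0.058, Psmg2 0.16, Psmd5 0.17, Psme2b 0.20, Ubqln4 0.019 and Nploc4 0.0026. With quantile normalization they were Psmg2 0.0082 and Psme2b 0.12. Psme2b ran from -0.21 to 0.095 with 1 library left out, and was 0.057 without WT1 and WT2 and 0.078 without KO4 and WT4. No other sign changed among the members and partner genes named. Recovered reads per member and library ran from 54 for Psmg3 upward, which limits the lowest members.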
